A study of Mus musculus with 23 samples.

Results

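The genes described here encode the proteins of the cytosolic ribosome, gene by gene. Members are protein-coding genes whose mouse symbol begins with Rpl or Rps followed by a number (Rplp0, Rplp1, Rplp2 and Rpsa included), without pseudogenes, the S6 kinases and binding proteins. Of 394 symbols of the series that match the pattern, 92 were left after these exclusions by name, and 7 of those were dropped as annotated pseudogenes. The rule thus gave 85 genes, 52 of the large and 33 of the small subunit, of 55487 gene IDs in the deposited tables. The cultures were hippocampal neurons of C57Bl/6 mouse pups, taken on postnatal day 1 and kept in microfluidic chambers that separate axons from cell bodies. All cultures carried magnetic nanoparticles (MNPs) at 5 µg/ml. The stretched cultures were in a magnetic field gradient of 50 T/m from day in vitro (DIV) 1 to DIV 6, which pulls on the particles, and the control cultures had no gradient. Control libraries numbered 5 from axons and 6 from somata, stretched libraries 6 from axons and 6 from somata, and soma stands for the cell-body side, which the labels call the whole culture. Nothing in the labels says that replicates came from separate cultures or animals, so p-values measure only the spread between these libraries.

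A ribosome joins a small subunit, which binds the mRNA and decodes it, to a large subunit, which forms the peptide bond and guides the growing chain through an exit tunnel. Ribosomal proteins are made in matched amounts, and their mRNAs are among the shortest and most abundant of a cell. These mRNAs begin with a run of pyrimidines (C or T in the DNA), the terminal oligopyrimidine or TOP motif, through which their translation follows growth signals such as mTOR. In neurons, ribosomal protein mRNAs are known cargo of axons, where local translation takes place.

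Start sites of some members show this motif. Of the 85 members, 65 had a promoter in the RefSeq table for GRCm38.p6 (mm10), with 77 entries. In 17 of these 65 genes (26.2%), 5 or more C or T followed without a break from the annotated first base on the gene's strand, against 5.28% of 27025 genes in the table. A run that begins at any other base was not counted, so these shares depend on the annotated start. An unbroken run of 8 or more C or T within 50 bases before to 50 bases after the start was found for 53 of the 65 (81.5%) and for 39.3% of all genes. The letters CGGAAG, the core of the sites of ETS factors, occurred on either strand of the 300-base promoter in 66.2% of the members and 18.8% of all genes. Shown are the 15 bases before and the 15 bases from the start for 6 members: the genes with such a run among those that changed most in stretched somata (Rps21, Rpl14, Rpl35) and least (Rps18, Rpl7a), and Rps6, the target of the S6 kinases. Capitals mark the pyrimidine run from the annotated first base.
Rps21, chr2:180257364-180257393, plus strand: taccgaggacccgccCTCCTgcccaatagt
Rpl14, chr9:120571502-120571531, plus strand: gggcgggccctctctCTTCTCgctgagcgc
Rpl35, chr2:39005117-39005146, minus strand: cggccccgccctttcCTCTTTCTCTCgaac
Rps18, chr17:33955651-33955680, minus strand: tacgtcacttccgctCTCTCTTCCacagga
Rpl7a, chr2:26910792-26910821, plus strand: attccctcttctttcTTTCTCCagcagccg
Rps6, chr4:86857353-86857382, minus strand: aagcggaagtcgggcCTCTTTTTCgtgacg
Both the members that fell furthest and those near 0 carried the run. The 16 tested members with at least 5 pyrimidines from the first base had a median log2 fold change (log2FC) with stretch in somata of -0.53, and the 45 others with a promoter entry had -0.59, given as a description with no test. This split too rests on the annotated first base.

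Libraries held 16369153 to 43048953 counts. Soma libraries had a count for 82 to 84 of the 85 members and axonal libraries for 76 to 82. Reads that the authors could not place in a gene made up 14.2% to 24.4% of reads, and reads with several alignments were among them, so members with near-identical processed copies (Rpl24, Rps10, Rpl13a, Rpl36al) may be undercounted. Control soma replicate 4 stood apart: members took 1.10% of its counts and 1.503% to 1.563% in the other 5 control soma libraries. By how much Eif2s3y they held, a Y-linked gene, soma libraries also split into 2 sets, with control replicates 1, 2 and 3 and stretched replicates 1, 2 and 8 in the higher set. The 8 neuronal markers summed to 6439 to 7761 counts per 1000000 counts (CPM) in control somata and 6277 to 6527 in stretched somata. Astrocyte markers, 8 of 8 detected in every group, summed to 5120 to 14075 CPM in control somata, 5354 to 11400 in stretched somata, 4651 to 25629 in control axons and 4790 to 19604 in stretched axons. Axonal libraries called a pure preparation of axons in the labels held astrocyte transcripts over a range that spanned that of somata, with neuronal markers at 2695 to 4621 CPM in controls and 1840 to 4183 in stretched cultures. Of 7 microglia markers, 5 were at 0 in control axons (Aif1, Cx3cr1, Csf1r, P2ry12, C1qa), and only P2ry12 was at 0 in stretched axons. The 7 summed to 23.0 to 47.2 CPM in control somata, 15.8 to 23.2 in stretched somata, 0 to 363 in control axons and 0 to 312 in stretched axons. The 5 genes whose RNA is known from nuclei and dendrites (Malat1, Meg3, Camk2a, Dlg4, Shank1) were all detected in both axonal groups, though not in every library. Camk2a was at 0 in control axon replicates 1, 3 and 7 and stretched axon replicates 1 and 2. The 5 summed to 1009 to 2730 CPM in control axons, 543 to 2924 in stretched axons, 1690 to 2633 in control somata and 1134 to 1861 in stretched somata. Malat1 alone was at 508 to 2057 CPM in control axons and 309 to 2777 in stretched axons. Fewer cells of a type and less RNA per cell cannot be told apart in such bulk samples.

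Levels between genes are compared per kilobase of transcript (CPM per kb), as means over the libraries of a group. In control somata the order was led by Rpl41, the smallest ribosomal protein, at 759.9 CPM per kb, then Rps14, a small subunit protein near the mRNA exit, at 665.7, Rpl32 at 649.8, Rpl4, which lines the exit tunnel, at 493.4, and Rpl13 at 492.7. The last 2 differed by less than the spread between libraries, and so did Rps14 and Rpl32. Stretched somata had Rpl41 (472 CPM per kb), Rps14 (434) and Rpl32 (424) in the same first 3 places, followed by Rps18 (393) and Rpl4 (351). In control axons the first 5 were Rpl41 (2742 CPM per kb), Rpl32 (2032), Rplp0 (2007), Rps2 (1540) and Rps19 (1429), and in stretched axons Rpl41 (2036), Rpl32 (2019), Rplp0 (1567), Rps2 (1313) and Rps14 (1224). At the other end, Rpl10l had no count in any library. Rpl3l, the form known from heart and skeletal muscle, and Rpl39l, known from testis, reached at most 5 and 12 counts in a soma library and none in axons. Rps20 ranked low per kb partly by construction, since its annotated transcript used here is 3706 bases long.

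Members were lower in stretched than in control somata, in both subunits and in most of the genes. Of 81 members tested, 70 fell and 0 rose (edgeR quasi-likelihood test, Benjamini-Hochberg adjusted over all 15632 genes, threshold 0.05), and all 81 estimates were negative, from -1.20 to -0.10 with a median of -0.59. Among all genes tested 13.9% fell, and the median log2FC was -0.03. The 11 members that did not pass were Rpl23a, Rps10, Rpl39, Rpl22, Rpl22l1, Rps25, Rps28, Rpl5, Rpl9, Rpl7l1 and Rpl7a. The share of counts taken by all members was 1.46% ± 0.179 in control and 1.02% ± 0.0526 in stretched somata (SD, n = 6 each), and the ranges, 1.10% to 1.56% and 0.934% to 1.09%, did not overlap. For 25 of the 81 members every stretched library was under every control library, against 2.27% of all genes tested. Without control soma replicate 4 this held for 68 of 81 members (9.53% of genes), and 76 members passed the test (20.1% of genes). With an offset in each library for how counts depended on transcript length and GC content, 48 of 81 members fell (7.91% of genes did), with a median of -0.31, and 22 of the 70 calls were lost.

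**Figure D1:**
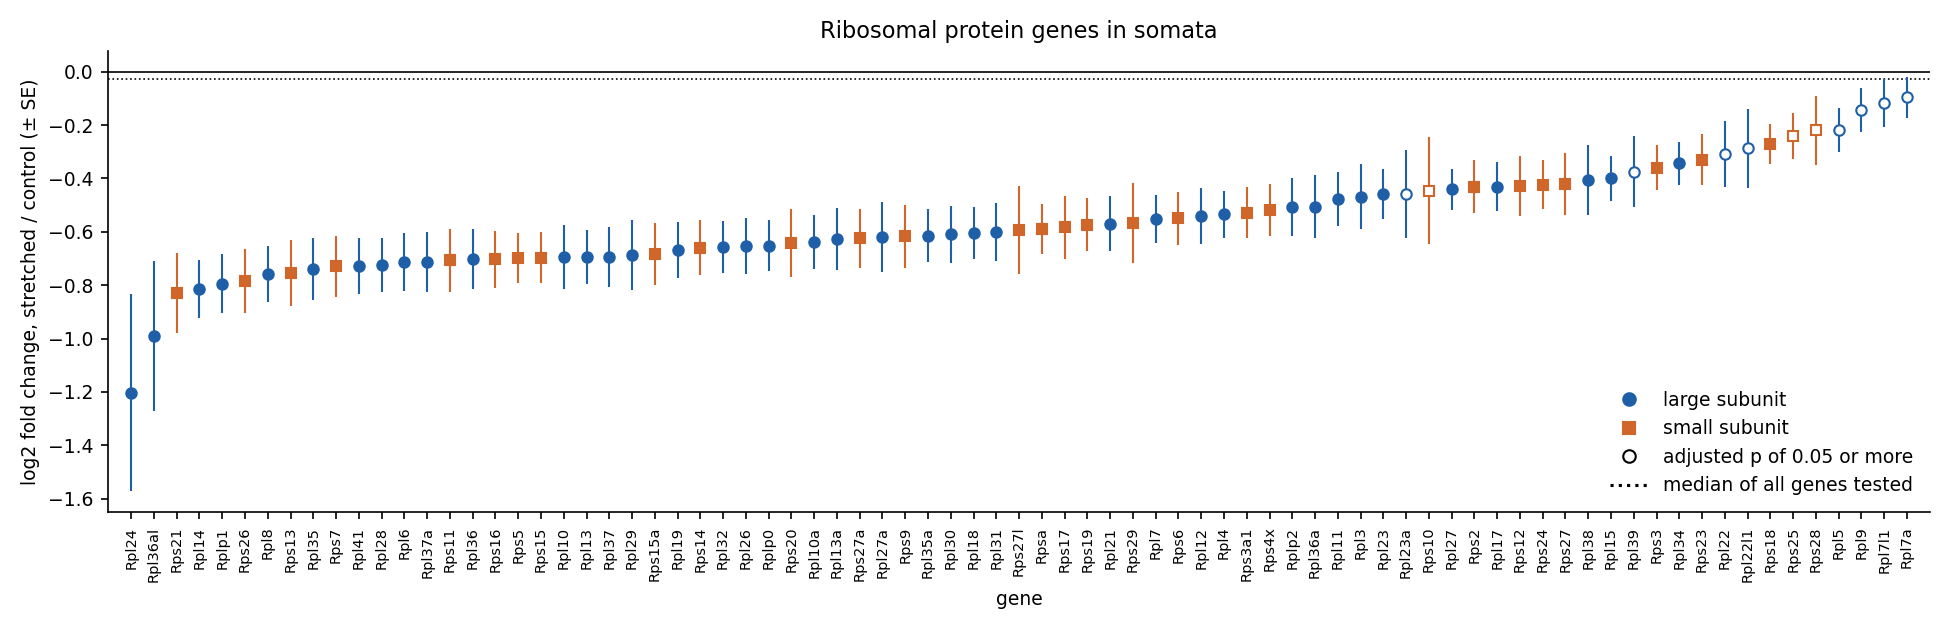
Log2 fold change of stretched against control somata for 79 of the 81 members tested (y axis, points with SE, n = 6 against 6), ordered by value on the x axis. Circles are large subunit genes, squares small subunit genes, open symbols did not pass the test, and the dotted line is the median of all genes (-0.03). All 79 points lie under 0, and the 2 subunits are mixed along the order.

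The 2 subunits gave close medians. Of 49 large subunit genes tested 41 fell, with a median log2FC of -0.61, and of 32 small subunit genes 29 fell, with a median of -0.58. Summed counts of large over small subunit genes gave 1.65 ± 0.0332 in control and 1.62 ± 0.0402 in stretched somata (SD, n = 6 each), with ranges of 1.592 to 1.682 and 1.596 to 1.705 that overlapped. In axons this ratio was 1.51 ± 0.0901 in control (SD, n = 5) and 1.52 ± 0.17 in stretched libraries (SD, n = 6).

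**Figure D2:**
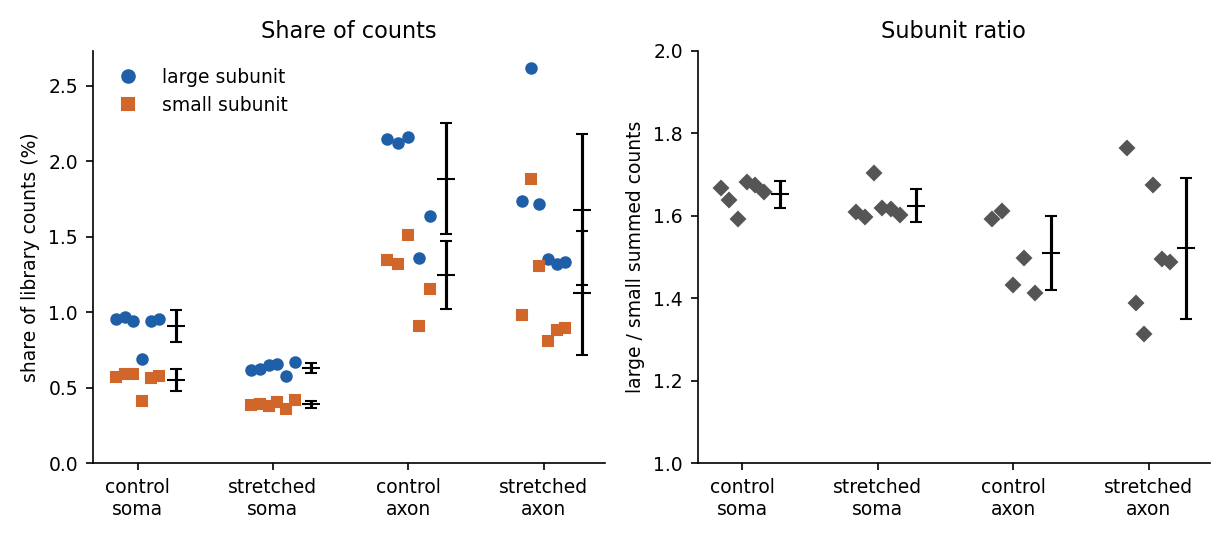
Left, share of a library's counts (%) held by large (circles) and small (squares) subunit genes, by group (x axis). Right, large over small summed counts on an axis that starts at 1. Each point is a library and bars are mean ± SD (n = 5 for control axon, otherwise 6). Control soma replicate 4, at 1.10% in all, lies apart from the other control somata, and stretched axon replicate 2 is the highest of all at 4.51%.

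All 4 genes of the stalk of the large subunit, on which elongation factors dock, fell in stretched somata (median -0.60). So did 70 of 81 members and 13.9% of all genes. With the length and GC offset 3 of the 4 fell, where 48 of 81 members and 7.91% of all genes did. Rplp0, the protein that anchors the stalk, lay at 489, 663 and 759 CPM (lowest, median, highest) in control and 398, 433 and 447 CPM in stretched somata. The groups did not overlap (log2FC -0.65, SE 0.0963, adjusted p = 0.00293, edgeR). Rplp1, an acidic stalk protein, was at 130, 190 and 215 CPM and at 93.9, 111 and 121 CPM, again without overlap (-0.79, SE 0.111, adjusted p = 0.0029). Its partner Rplp2 was at 98.8, 141 and 171 CPM and at 93.0, 105 and 111 CPM. Those ranges overlapped through control replicate 4 (-0.51, SE 0.11, adjusted p = 0.00773). With the offset Rplp2 did not pass (-0.17, adjusted p = 0.128 by edgeR).

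Among the other large subunit genes, the low estimates at 10 CPM or more included those of Rpl14, Rpl8 and Rpl35. Rpl14 (chr9:120571444-120574654) was at 221, 319 and 340 CPM in control and 156, 169 and 216 CPM in stretched somata (-0.81, SE 0.11, adjusted p = 0.0029, edgeR). Rpl8, a protein at the peptidyl transferase centre, was at 149, 221 and 232 CPM against 106, 130 and 144 CPM (-0.76). Rpl35, at the rim of the exit tunnel, was at 149, 186 and 242 CPM against 93.5, 119 and 142 CPM (-0.74). In these 3 genes no stretched library reached the lowest control library. Of the 8 tunnel genes 6 fell (median -0.57), Rpl4 at -0.53, and Rpl39 and Rpl23a did not pass (adjusted p = 0.0506 and 0.0521). With the offset 5 of the 8 fell, Rpl17 losing its call. Over all members these counts were 70 of 81 and, with the offset, 48 of 81, and over all genes 13.9% and 7.91%. Rpl24 and Rpl36al had lower estimates still (-1.20 and -0.99) at under 3 CPM in every soma library, where precision is low (SE 0.369 and 0.281), and neither passed with the offset.

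In the small subunit the lowest estimates were those of Rps21, Rps26 and Rps13. Rps21 (chr2:180257377-180258445) was at 34.1, 54.0 and 70.8 CPM in control and 25.9, 30.4 and 38.2 CPM in stretched somata, overlapping through control replicate 4 (-0.83, SE 0.15, adjusted p = 0.00432, edgeR). Rps26, which touches the mRNA where it leaves the subunit, was at 95.4, 153 and 172 CPM against 81.1, 84.6 and 99.5 CPM (-0.79, SE 0.12, adjusted p = 0.00293). Rps13 was at 72.4, 121 and 132 CPM against 63.1, 69.3 and 75.5 CPM (-0.75). For Rps26 and Rps13 too, control replicate 4 was the 1 control library inside the stretched range. All 5 genes at the mRNA entry and decoding site fell (median -0.43), and 4 of 5 at the mRNA exit fell (median -0.66). Among all members 70 of 81 fell, and 13.9% of all genes did. Under the length and GC offset these were 48 of 81 and 7.91%. With the offset 3 of 5 fell at the entry, where Rps2 (-0.13, adjusted p = 0.397 by edgeR) and Rps23 (-0.14, adjusted p = 0.258) lost their calls, and 4 of 5 still fell at the exit. Rpsa, the laminin receptor protein, was at 142, 189 and 206 CPM against 114, 126 and 138 CPM with no overlap (-0.59, SE 0.0941, adjusted p = 0.00293). Rps6, the protein phosphorylated by S6 kinases, was at 169, 229 and 262 CPM against 147, 155 and 166 CPM with no overlap (-0.55, SE 0.0996, adjusted p = 0.00434). Rps27a, made as a fusion with ubiquitin, had a log2FC of -0.62 and Rps4x one of -0.52, and both fell.

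Genes often used as references were among those that fell. Rpl19 had a log2FC of -0.67, Rpl32 of -0.66, Rpl13a of -0.63, Rps29 of -0.57 and Rps18 of -0.27, and each passed. Among all members 70 of 81 fell, as did 13.9% of all genes. Rps18 lay at 218, 261 and 285 CPM in control and 207, 224 and 229 CPM in stretched somata, the smallest difference of any member that passed (SE 0.0736, adjusted p = 0.0173, edgeR). With the offset Rpl19 and Rpl32 passed, and Rpl13a (-0.35, adjusted p = 0.0837 by edgeR), Rps29 (-0.25, adjusted p = 0.163) and Rps18 (0.05, adjusted p = 0.74) did not. Under that offset 48 of 81 members and 7.91% of all genes fell.

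A few members had estimates near 0. Rpl7a was at 137, 167 and 174 CPM in control and 144, 155 and 170 CPM in stretched somata (log2FC -0.10, SE 0.0772, adjusted p = 0.378, edgeR). Rpl9 was at 144, 166 and 189 CPM against 138, 156 and 168 CPM (-0.14, SE 0.082, adjusted p = 0.204). Rps28, near the mRNA exit, was at 42.2, 44.9 and 71.8 CPM against 37.0, 42.3 and 53.8 CPM (-0.22, SE 0.13, adjusted p = 0.222), and Rps25 had -0.24 (adjusted p = 0.0534). For each of these 4 the ranges of the groups overlapped. Rpl5 and Rpl11 join the 5S rRNA before it enters the large subunit, and bind Mdm2. Rpl5 was at 239, 283 and 298 CPM against 222, 244 and 257 CPM (-0.22, SE 0.0813, adjusted p = 0.0591), and Rpl11 was at 96.4, 143 and 147 CPM against 91.8, 101 and 109 CPM (-0.48, SE 0.101, adjusted p = 0.0072). With the offset the estimates lay close, at -0.19 for Rpl5 and -0.18 for Rpl11, and neither passed (adjusted p = 0.113 and 0.137 by edgeR). Whether the change of Rpl5 and Rpl11 differed was not tested.

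Within the higher Eif2s3y set (3 against 3 libraries) 70 members fell, as did 12.7% of all genes tested. Within the lower set no gene at all, members included, passed by edgeR (0% of 15718 were lower). Members there were at a median log2FC of -0.49 with 78 of 80 estimates negative, and 60 had an unadjusted p under 0.05 by edgeR, as did 17.4% of all genes. Leaving control soma replicate 4 out of that set, an alternative chosen after the data were seen, gave 66 members that fell (14.2% of genes).

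Short transcripts as a class were lower in stretched somata, and members are short, with a median of 681 bases against 2755 for all genes tested. Among other genes with transcripts of over 500 to 750 bases the median log2FC was -0.38 and 29.5% fell, and the 23 members of that length had a median of -0.64 with 18 lower. For over 750 to 1000 bases the medians were -0.36 in 626 other genes and -0.57 in 21 members. At over 4000 to 6000 bases, where no member lies, the median of other genes was 0.25. Under the length and GC offset Rpl14 had a log2FC of -0.55, Rplp1 of -0.45 and Rps21 of -0.52, and all 3 passed, while the 22 lost calls included Rplp2, Rpl11, Rpl13a, Rps29, Rps2, Rps23 and Rps18. Rps18, Rps28, Rpl9, Rpl7l1 and Rpl7a turned positive, from 0.05 to 0.17, with none passing. Among the members themselves length and log2FC were hardly related (Spearman's rho 0.01 across 81 genes, which share libraries and are not independent).

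**Figure D3:**
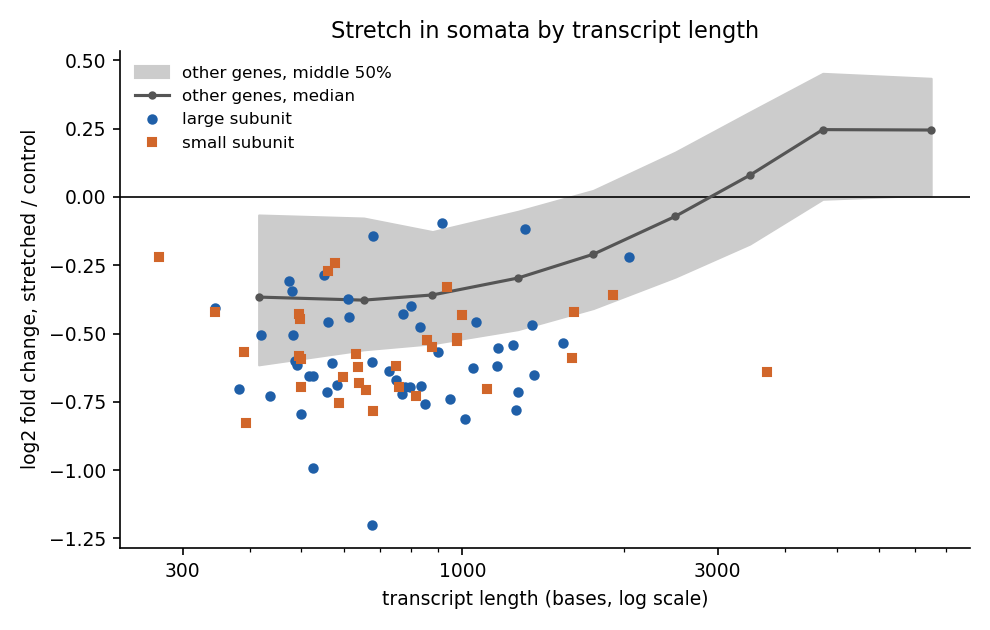
Log2 fold change of stretched against control somata (y axis) by transcript length (x axis, log scale). The line and band are the median and middle 50% of other genes in 9 length classes, circles large and squares small subunit members. Of the 81 members 70 lie under the median of other genes in their length class, -0.38 at over 500 to 750 bases.

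Paralogs were compared by the log2 ratio of their counts within a library, which does not depend on scaling between libraries and is not corrected for length. Of 8 pairs, 5 had a mean of at least 10 counts per soma library for both genes, and p-values were adjusted over these 5. Rpl7l1 (chr17:46773907-46782672), a paralog of Rpl7 known from ribosome assembly, gained on Rpl7 (chr1:16101295-16104662). The Rpl7l1/Rpl7 log2 ratio was -1.19 ± 0.181 in control and -0.76 ± 0.159 in stretched somata (SD, n = 6 each), a difference of 0.43 (p = 0.00433 by exact permutation over libraries, two-sided, and adjusted p = 0.0216). Control libraries ranged from -1.40 to -0.91 and stretched libraries from -0.98 to -0.54, so that 1 control library, replicate 4, lay inside the stretched range. Behind the ratio, Rpl7 went from a median of 289 to 200 CPM (log2FC -0.55, SE 0.0912) and Rpl7l1 from 130 to 117 CPM (-0.12, SE 0.0894). Rpl36al, a near-identical copy of Rpl36a on another chromosome, lost against it, from -4.80 ± 0.176 to -5.34 ± 0.419 (SD, n = 6 each; exact permutation p = 0.0108, adjusted p = 0.0271). It had a mean of 42.1 counts per soma library, and reads shared by both copies were not counted, so this ratio is uncertain. Leaving out control soma replicate 1, 3 or 5 left 1 of the 5 pairs past the threshold.

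The remaining ratios did not pass. Rpl22l1/Rpl22 had means of -2.47 and -2.48 (exact permutation p = 0.968, adjusted p = 0.968), a pair in which Rpl22 is known to restrain Rpl22l1 splicing. Rps27l/Rps27 went from -0.56 to -0.72 (exact permutation p = 0.21, adjusted p = 0.262). Rps4l/Rps4x, where Rps4l is annotated as a transcribed pseudogene, went from -1.52 to -1.67 (exact permutation p = 0.149, adjusted p = 0.249). In axons these ratios spread widely, in some libraries with a gene at 0 counts and in others without. Rpl22l1/Rpl22 ran from -12.5, with no Rpl22l1 count, to 0.30 in control axons. In stretched axons it ran from -6.39, at 8 against 714 counts, to 8.96, with no Rpl22 count. Rps27l/Rps27 ran from -2.37 to 0.27 in stretched axons, with counts of both genes in every library.

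**Figure D4:**
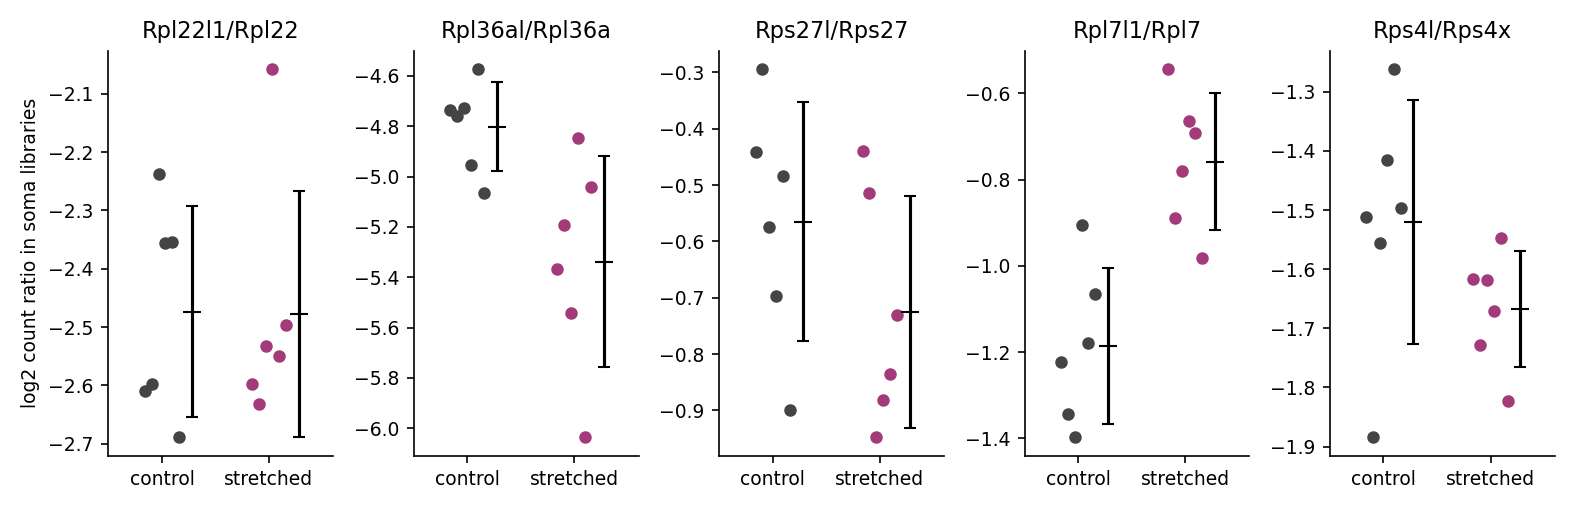
Log2 ratio of the counts of 5 paralog pairs in each soma library (y axis, its own range per pair and not starting at 0), for control and stretched somata (x axis). Points are libraries and bars are mean ± SD (n = 6 each). Rpl7l1/Rpl7 is higher in stretched somata (-0.76 against -1.19).

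In axons no member was called between stretched and control libraries. Of 81 tested 0 passed by edgeR, 0 had an unadjusted p under 0.05, and 0 were called by DESeq2. Of all 4947 genes tested 0% passed by edgeR, with 46 at an unadjusted p under 0.05, and DESeq2 called 3 lower and 15 higher. Estimates ran from -1.81 for Rpl22 to 0.92 for Rpl5, with a median of -0.19 and a median SE of 0.90, against 0.11 in somata. Rpl22 was at 45.0, 51.9, 84.6, 162 and 354 CPM in control axons and at 0, 33.5 and 114 CPM (lowest, median, highest) in stretched axons (log2FC -1.81, SE 2.03). Rpl30 was at 72.4, 74.3, 110, 119 and 169 CPM against 0.229, 32.0 and 178 CPM (-1.14, SE 1.74). Rpl5 was at 19.9, 185, 196, 276 and 276 CPM against 177, 390 and 549 CPM (0.92, SE 0.948). In all 3 genes the groups overlapped. None of these differences was detected. Whether the change with stretch differed between somata and axons was not tested.

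Detection in axons was uneven from library to library. Of the 85 members, 72 had a count in all 11 axonal libraries, as did 1.86% of all gene IDs, and 82 had one in all 12 soma libraries. Stretched axon replicate 1 had no count for Rpl8, Rps13, Rplp2, Rpl7l1, Rpl22l1 and Rpl36al, while Rplp0 was at 1277 CPM and Rpl41 at 1120 CPM there. Control axon replicate 1 lacked Rpl18, Rpl22l1 and Rpl24, with Rplp0 at 3430 CPM. The median coefficient of variation over tested members was 39.5% in control and 54.8% in stretched axons, against 14.97% in control and 8.68% in stretched somata.

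Against somata, many members were higher in axons, and almost none were lower. Far fewer gene IDs had a count in axons: 4867 to 10242 in control and 4263 to 10065 in stretched libraries. Soma libraries had 22452 to 23981 and 22927 to 24575. CPM is a share of a library's counts, and the part of the genes missing from axons in the members' higher values was not tested. In control cultures 29 of 81 members were higher in axons and 0 lower (edgeR), with a median log2FC of 0.83. Of all 14728 genes tested 0.856% were higher and 34.4% lower, with a median of -1.40. In stretched cultures 31 of 80 members were higher and 1 lower, with a median of 0.91, against 0.843% of genes higher and 28.4% lower and a median of -1.13. Scaling by total counts moved the median of all genes to -1.27 and -0.73, and the members with it to 1.07 and 1.44. Every axonal library was above every soma library for 38 of 81 members in control cultures (0.978% of genes) and for 43 of 80 in stretched cultures (1.35%). The counts of members higher in axons moved with the method. With no filter on low counts they were 7 and 8 in control and stretched cultures (125 of 30188 and 126 of 31176 genes). DESeq2 gave 44 and 46 (281 of 14728 and 290 of 14466 genes). Total counts gave 52 in stretched cultures (282 of 14466 genes). Calls also depended on single soma libraries: leaving out control soma replicate 1, 3, 5 or 6 left 17 to 18 members higher in control cultures. Of all genes tested (14132 to 14242) 87 to 93 were higher in those fits. Large and small subunit medians were 0.77 and 0.84 in control and 0.73 and 0.98 in stretched cultures.

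Rplp0, the stalk anchor, had the clearest difference. It was at 1722, 2263, 2812, 3399 and 3430 CPM in control axons and at most 759 CPM in control somata (log2FC 1.79, SE 0.181, adjusted p = 1.088e-05, edgeR). In stretched axons it was at 1277, 1751 and 4569 CPM, and at most 447 CPM in stretched somata (1.81, SE 0.287, adjusted p = 0.0002027). Rps2, at the mRNA entry, was at 1131, 1192, 1374, 1916 and 2072 CPM in control axons against 338 to 506 CPM in control somata (1.601, SE 0.201, adjusted p = 3.892e-05). Rps20, on the head of the small subunit, was at 219, 279, 301, 345 and 350 CPM in control axons against 44.1 to 85.0 CPM in somata (1.89, SE 0.387, adjusted p = 0.001609). In stretched axons it was at 61.9, 145 and 791 CPM, all above the stretched somata (2.02, SE 0.604, adjusted p = 0.02189). In control axons Rps29 was at 211, 393, 431, 476 and 590 CPM against 66.8 to 142 CPM in somata (1.94, SE 0.371, adjusted p = 0.0009579). Rps12 had 1.85 (SE 0.566, adjusted p = 0.02223) in control cultures. Neither passed in stretched cultures, with Rps29 at 1.40 and Rps12 at 1.38 (adjusted p = 0.0935 and 0.0671, edgeR). In stretched cultures Rpl32 had 1.70 (SE 0.337, adjusted p = 0.001297) and Rpsa 1.68 (SE 0.356, adjusted p = 0.002134). For Rplp0, Rps2, Rps20 and Rps29 the axonal and somatic ranges of the control cultures did not overlap.

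Not every member followed. Rpl5 was at 19.9 to 276 CPM in control axons and 239 to 298 CPM in control somata (log2FC -0.77, SE 0.55, adjusted p = 0.4227, edgeR), and Rpl18 and Rpl10 had estimates of -0.50 and -0.46 that did not pass. In stretched cultures Rpl22 (-1.42), Rpl30 (-0.34), Rpl22l1 (-0.31) and Rpl28 (-0.09) had the lowest estimates at 10 CPM or more, none passing. Rps10, near the mRNA entry, was the 1 member lower in axons of stretched cultures. It was at 1.44, 1.76 and 2.09 CPM in stretched somata and at 0, 0.0774 and 0.14 CPM in stretched axons, at about the level of 3 counts (0.105 to 0.183 CPM there), so that its fitted log2FC is not given.

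**Figure D5:**
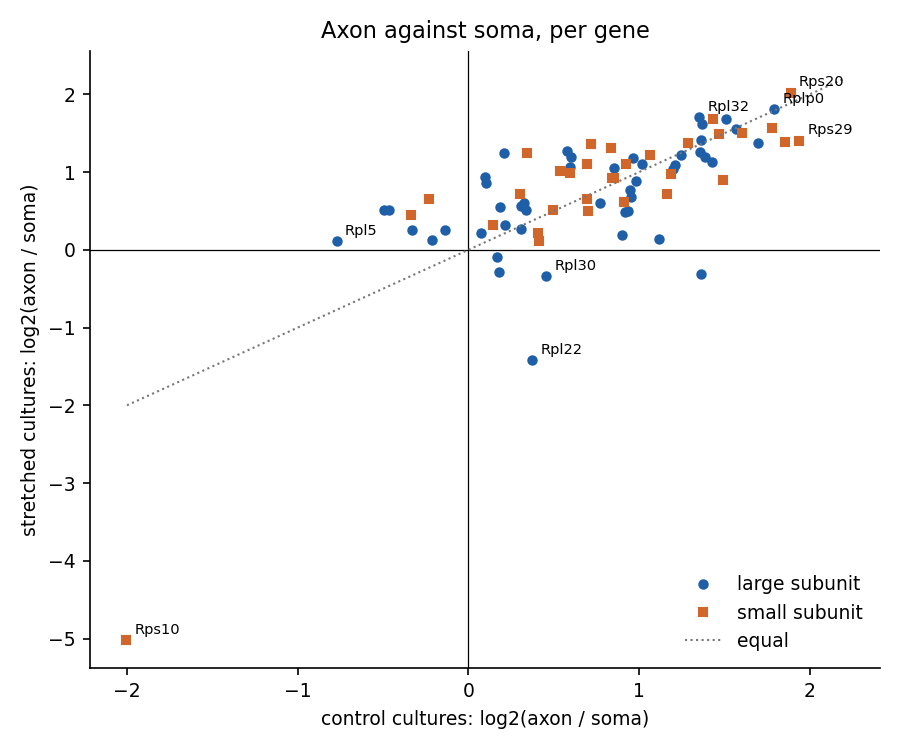
Log2FC of axons against somata in control cultures (x axis) and in stretched cultures (y axis), for each member tested in both. Circles are large and squares small subunit genes, and the dotted line marks equal values. Most members lie above 0 on both axes, with Rplp0 at 1.79 and 1.81.

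Genes outside the rule that share the motif or the ribosome gave these counts. Of 19 other genes known for TOP mRNAs (elongation factors, initiation factor subunits and others), 15 fell and 1 rose with stretch in somata (median log2FC -0.45), where 13.9% of all genes fell. None of the 19 passed in axons (0% of genes), and 2 and 4 were higher in axons than in somata of control and stretched cultures (0.856% and 0.843% of genes). Fau encodes a ribosomal protein under another symbol, as a fusion with a ubiquitin-like protein. In somata Fau had a log2FC of -0.68 (SE 0.0998, adjusted p = 0.002931, edgeR). Rack1, a scaffold on the small subunit, had -0.45 (SE 0.0895, adjusted p = 0.005753). Both fell. In axons against somata Fau passed in stretched cultures (1.33, SE 0.42, adjusted p = 0.03) but not in control cultures (0.98, adjusted p = 0.157, edgeR). Rack1 passed in neither, at 0.43 in control and 0.56 in stretched cultures (adjusted p = 0.461 and 0.437, edgeR). The part of astrocyte, microglia, neuron, nuclear and dendritic content in the changes of the members was not tested.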

How the data were processed

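The authors deposited whole-number read counts per Ensembl gene for each of the 23 libraries. The submitters' processing notes name fastp 0.20.1, FastQC 0.11.9, MultiQC 1.12, STAR 2.7.08a, HTSeq 0.13.5 and the build mm10. The annotation, strand setting and use of molecular identifiers are not given in the sources used here. Rows without a gene stayed out of library sizes. Symbols, lengths and positions came from GENCODE M21 (shortest principal coding transcript). CPM is counts per 1000000 counted reads. Each comparison was fitted on its own libraries with edgeR 4.0.16 (R 4.3.3, with filterByExpr, TMM, quasi-likelihood, robust), with p-values adjusted over all genes. The fits were also run on simulated counts. For the 3 comparisons with axonal libraries the simulated spread was smaller than the fitted one, so that check does not cover them. SE is the size of log2FC divided by the square root of F. Paralog ratios used a pseudocount of 0.5 and exact permutation. Offsets were smooths of log counts on length and GC (mgcv 1.9.3). Alternatives included DESeq2 1.42.0. Named genes were the 8 lowest and 8 highest in somata and 4 in other comparisons at a mean of at least 10 CPM, paralogs, fixed members and the top 5 per kb. Rpl24, Rps10 in somata, and the members that did not pass or had no count in a library were named after their values were seen. Some single-gene values are not reported here. Members and lists were chosen with earlier results of these data known. Depth gives 3 counts as 0.0697 to 0.183 CPM, a floor that covers counting error alone because cDNA was amplified.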

Additional observations from a re-analysis of the deposited data

Results flagged for a closer look

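Of 232 groups of 5 or 6 values tested for a single library far from the rest, 35 had one (15.1%), where chance gives about 1 in 20. Values are CPM unless named otherwise. Most came from 2 libraries, so the flags are not independent.

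Control soma replicate 4 was the lowest of its group for the share of counts, at 1.10% with the next library at 1.503%. It was also lowest for Rpl11 (96.4), Rpl13 (273), Rpl14 (221), Rpl18 (127), Rpl19 (103), Rpl35a (74.9), Rpl4 (587), Rpl8 (149), Rps14 (282), Rps19 (217), Rps26 (95.4) and Rps27a (110). Leaving it out raised the count of members that fell from 70 to 76.

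Stretched axon replicate 2 was the highest of its group for the share of counts, at 4.51% with the next at 3.02%. Rpl11 (491), Rpl30 (178), Rpl32 (2380), Rplp0 (4569), Rps27 (864) and Rpsa (1247) were far above the other stretched axons there.

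Control soma replicate 3 was high for Rps28 (71.8) and Rps29 (142), and control soma replicate 2 for Rpl39l (0.496). Stretched soma replicate 4 had the highest ratio of large to small subunit counts (1.70) and was high for Rpl28 (110). Stretched soma replicate 6 was low for Rpl35a (64.8), and replicate 5 had a high Rpl22l1/Rpl22 log2 ratio (-2.06). Among control axons, replicate 1 was high for Rpl13a (129) and had a Rpl22l1/Rpl22 log2 ratio of -12.5, with no Rpl22l1 count. Replicate 2 was high for Rpl35a (276) and Rpl9 (943), replicate 3 had a Rps4l/Rps4x log2 ratio of -14.3, replicate 5 was high for Rps10 (2.81), and replicate 7 was low for Rpl19 (108). Stretched axon replicate 1 had a Rpl36al/Rpl36a log2 ratio of -13.6, with no Rpl36al count.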

How the results depend on the processing

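In somata the count of members that fell (70) stayed between 66 and 76 when each library was left out in turn, and between 67 and 75 with other scalings, no filter, DESeq2, the replicate block or the Eif2s3y set as covariate. It was 42 with the replicate block and offsets for length and GC together (938 of 15571 genes fell), and 0 in the lower Eif2s3y set alone (3 against 3 libraries). In axons 0 members were called under every alternative run. The count of members higher in axons of control cultures (29) was 7 with no filter, 44 with DESeq2, 3 with the replicate block (22 of 14345 genes) and 17 to 33 with a library left out. In stretched cultures the count (31) was 52 with total counts only, 8 with no filter, 1 with the replicate block (11 of 14466 genes) and 22 to 40 with a library left out. The cause of these shifts was not tested. Replicate numbers did not meet the rule for pairs (correlations of same-numbered soma libraries of 0.091 to 0.233, with 2 of 5 best with their own number), so the block is given here only. For axons against somata these correlations were 0.021 to 0.065 in control cultures, with 3 of 4 best with their own number. In stretched cultures they were -0.02 to 0.023, with 3 of 6 best with their own number. For the paralog ratios, differences within 5 pairs gave 0 calls, since 5 pairs allow no exact p under 0.0625, and leaving out a library gave 1 to 3. Estimates near 0 changed sign. Under offsets for length and GC, with the block added, with the longest transcript and without control soma replicate 4, in that order, Rps18 was at 0.0455, 0.0295, 0.0504 and 0.0484, Rps28 at 0.0496, 0.126, 0.104 and 0.0354, and Rpl7a at 0.169, 0.163, 0.197 and 0.219. Under the same offsets except that of the longest transcript, Rpl9 was at 0.0955, 0.064 and 0.0953 and Rpl7l1 at 0.0887, 0.0644 and 0.106, and with the longest transcript alone Rps25 was at 0.0194. Rpl22l1 was at 0.0017 and Rps28 at 0.0379 in the lower Eif2s3y set, and Rpl7a at 0.0251 in the higher set. In axons against somata of stretched cultures, total counts gave 0.171 for Rpl30, 0.0647 for Rpl22l1 and 0.395 for Rpl28, and DESeq2 or its size factors gave 0.026 for Rpl28, which ranged from -0.40 to 0.221 with a library left out. The Rpl22l1/Rpl22 difference was 0.0472 under the replicate block and ranged from -0.0879 to 0.0433 with a library left out. The offsets with the longest transcript, and those without control soma replicate 4, were chosen after the data were seen. In somata depth limited Rpl24, Rpl36al and Rps10, at a few CPM.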
